A study of Mus musculus with 5 samples.

Results

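The genes described here are 10 nuclear genes listed under mitochondrial fatty acid beta-oxidation, namely Cpt1a, Cpt1c, Cpt2, Acadvl, Acadl, Acadm, Acads, Hadha, Hadhb and Hadh. Of these, Cpt1c is a relative of the CPT1 enzymes that lies in the endoplasmic reticulum rather than in mitochondria. They were all chosen by name, from a list of carnitine shuttle and beta-oxidation genes described as classical targets of the estrogen-related receptors (ERRs) in heart and muscle. Each matched exactly 1 of the 53700 gene IDs in the count table. Ribosome-bound RNA was purified from pooled midbrains by BAC-TRAP, in which an antibody pulls down a tagged L10a ribosomal protein together with the mRNAs on the ribosome. All mice were C57BL/6, 4 months old, carried the L10a transgene and had received AAV:THCre, a virus in which a tyrosine hydroxylase promoter drives Cre recombinase. There were 3 libraries of genotype L10a;Esrrg WT (replicates 2, 3 and 4) and 2 of genotype L10a;Esrrg Flox (replicates 2 and 4), the latter with Cre-mediated loss of exon 2 of Esrrg, the gene for ERRγ, and tissue was taken 1 month after the deletion. The question asked of the 10 genes was whether their ribosome-bound mRNA differed between Flox and WT.

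Beta-oxidation shortens fatty acids in the mitochondrial matrix and passes electrons to the respiratory chain. Long-chain acyl groups enter through the carnitine shuttle, in which CPT1 on the outer membrane makes acylcarnitine and CPT2 on the inner membrane turns it back into acyl-CoA. In the matrix, acyl-CoA dehydrogenases of different chain-length preference start each round, and the trifunctional protein or the shorter-chain enzymes complete it. ERRs, together with the coactivator PGC-1α, activate genes of this pathway in heart and muscle. In brain the pathway is known mainly from astrocytes, and neurons are generally regarded as weak users of fatty acids as fuel.

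ERRs bind DNA at an AGGTCA core that is commonly preceded by TNA, so the promoters of the 10 genes were searched on both strands for AGGTCA and for the extended motif TNAAGGTCA, which contains it. RefSeq windows (GRCm38.p6) from 250 bases before to 50 bases after the annotated start were found for all 10 genes. The extended motif was in 0 of 10, against 1.43% of 27025 genes with a window. The AGGTCA core was in 4 of 10 (Acadm, Acadvl, Cpt1a and Cpt1c), against 18.1% of all genes. The 4 matches are shown because they are the only places in these windows where an ERR core motif occurs, with the core in capitals, read 5′ to 3′ on the strand that holds it.
Acadm: cggagcccgaAGGTCAc
Acadvl: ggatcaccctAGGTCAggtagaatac
Cpt1a: tgcggggaggAGGTCAgtaaggaaac
Cpt1c: gcagggagggAGGTCAaggctgtttc
These stretches lie at chr3:153944877-153944893 (plus strand), chr11:70015500-70015525 (minus strand), chr19:3323197-3323222 (minus strand) and chr7:44974982-44975007 (minus strand). The Acadm match sits at the far edge of its window, 249 bases before the start, and the others start 87 (Acadvl), 94 (Cpt1a) and 146 (Cpt1c) bases before it. A match describes the letters and is not evidence of binding, and sites outside these windows were not searched.

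The libraries held between 20635855 and 23105058 counts assigned to genes, and the 10 genes took between 0.0306% and 0.0360% of them. A count of 0 in a library allows a level of up to 0.130 to 0.145 CPM, that of 3 counts (counting error only). The markers of dopaminergic neurons were all detected, with Th at 6115 normalized counts per kb of transcript in WT (mean, n = 3) and 5787 in Flox (n = 2). Glial markers were abundant as well. Aldoc, an astrocyte marker, stood at 12745 per kb in WT and 12649 in Flox. Markers of GABAergic neurons were also present, from 60.5 (Vip) to 7470 (Pvalb) per kb in WT. Libraries of unpurified midbrain were not analysed here, so enrichment for dopaminergic RNA was not measured. WT replicate 4 stood apart from the other WT libraries. It had the highest WT level in 9 of 9 astrocyte, 8 of 8 oligodendrocyte and 8 of 10 dopaminergic markers, against 40.4% of all genes tested. It had the lowest in 12 of 12 microglial markers, against 38.1%. Flox replicate 4 had the highest microglial signal, with a summed level of 14703 normalized counts over the 12 markers, against 6578 in Flox replicate 2 and 1886 to 3677 in WT.

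Esrrg itself had 1763, 1643 and 1726 normalized counts in WT replicates 2, 3 and 4 and 1504 and 1170.1 in Flox replicates 2 and 4. Both Flox libraries lay below all WT libraries, but the difference did not pass the test (log2 fold change -0.35, SE 0.13, DESeq2 adjusted p = 0.0753). Without Flox replicate 2 it did (-0.55, DESeq2 adjusted p = 0.00582), and without Flox replicate 4 the value was -0.19. Gene counts include reads from the exons that remain, so they do not measure the loss of exon 2.

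None of the 10 beta-oxidation genes differed between Flox and WT past the threshold. In DESeq2, 0 of 10 had an adjusted p under 0.05, against 8.25% of the 15724 genes with an adjusted p, and 0 of 10 had this together with a fold change of at least 1.5, against 3.18%. At an unadjusted p under 0.05 there was 1 (Acadvl), against 20.3% of all genes, and edgeR's quasi-likelihood test also called 0 (1 at an unadjusted p under 0.05), against 1.42%. The genes had no common direction. Log2 fold changes ran from -0.61 (Acadvl) to 0.41 (Hadh), 5 of them below 0 and 5 above, with a median of 0.0089 beside -0.0063 over all genes tested. Flox lay entirely above WT in 1 gene (Acads), against 19.9% of all genes tested, and entirely below WT in 1 (Acadvl), against 22.5%. The groups overlapped in the other 8, whereas 42.4% of all genes tested had groups that did not overlap.

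**Figure D1:**
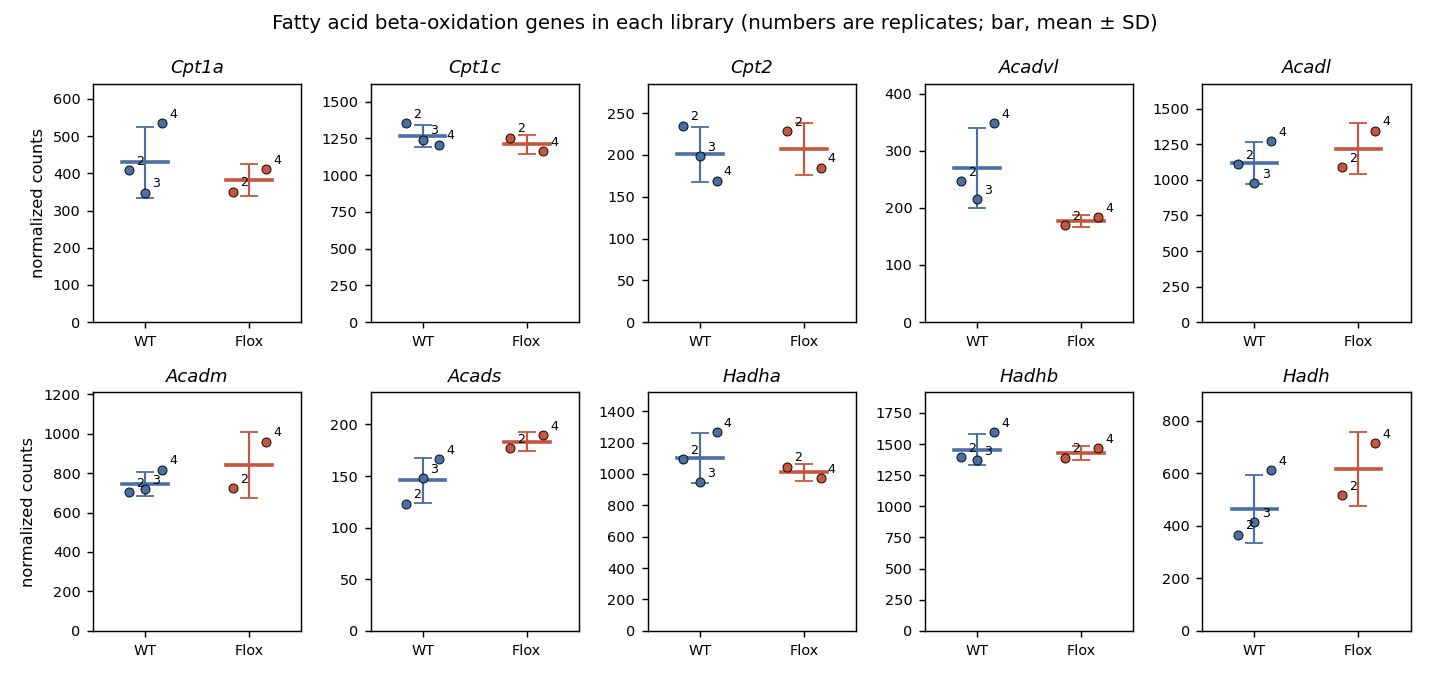
Normalized counts of the 10 genes in each library, with 1 panel per gene and the y axis from 0. Points are libraries labelled by replicate number, and bars give mean ± SD for WT (blue, n = 3) and Flox (red, n = 2). The groups are separate in Acadvl (Flox lower) and Acads (Flox higher) and overlap in the other 8 genes.

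Since a missed threshold does not show equality, the 95% Wald intervals from the fit with all libraries are given for each gene on its own. They hold for all RNA in the libraries, that of glia and of other neurons included, and do not exclude a larger change within dopaminergic neurons. The fold changes also moved when a library was left out, for instance to 0.36 for Acadm without Flox replicate 2 and -0.31 for Cpt1a without WT replicate 3. In 7 of 10 genes the whole interval lay within 1.5-fold in either direction (Cpt1a, Cpt1c, Cpt2, Acadl, Acadm, Hadha and Hadhb). A fall of 1.5-fold lay outside the interval in 9 of 10, the exception being Acadvl, and a rise of that size lay outside it in 8 of 10, the exceptions being Acads and Hadh. The narrowest intervals were those of Cpt1c (0.81- to 1.12-fold) and Hadhb (0.83- to 1.16-fold), 2 of the most abundant of the 10. The median SE of the members was 0.18, against 0.16 for the 7044 tested genes in the same range of mean counts (161 to 1444).

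**Figure D2:**
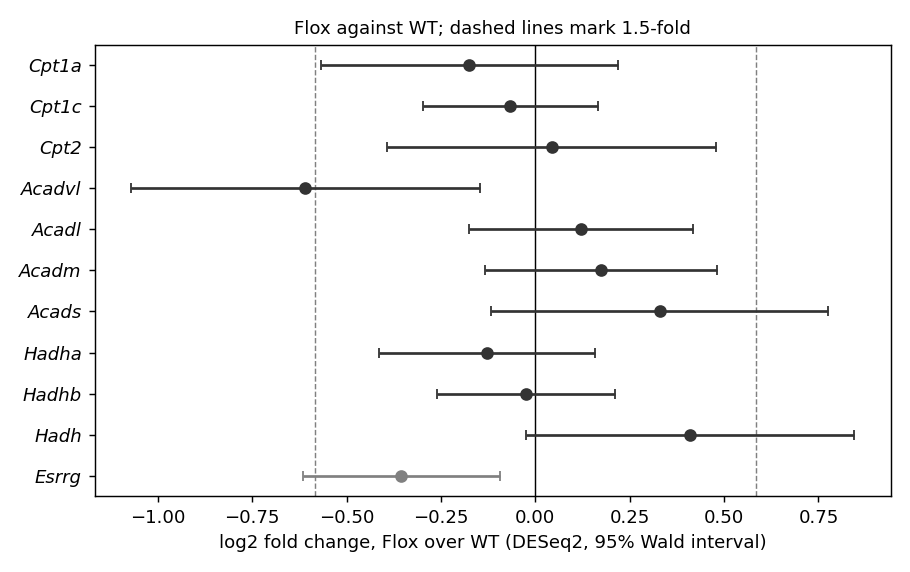
Log2 fold change of each gene in Flox over WT from DESeq2 (x axis), with its 95% Wald interval as a bar and dashed lines at 1.5-fold; Esrrg is shown in grey. The intervals of 9 of the 10 beta-oxidation genes include 0, and that of Acadvl runs from -1.07 to -0.15.

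The levels of the 10 genes covered a broad range in WT. Per kb of the principal transcript, Hadhb was the most abundant at 710.02 ± 60.2 normalized counts (SD, n = 3), followed by Acadl (584 ± 77.3), Cpt1c (454 ± 27.2), Acadm (364 ± 30.1), Hadha (275 ± 39.6), Hadh (259 ± 72.5), Acadvl (124 ± 32.0), Cpt1a (99.6 ± 22.1), Cpt2 (84.7 ± 13.9) and Acads (77.9 ± 11.5). Neighbours in this order whose WT libraries overlapped were Hadha and Hadh, Acadvl and Cpt1a, Cpt1a and Cpt2, and Cpt2 and Acads. Hadhb exceeded 81.1% of the tested genes with a transcript length, and Acads 35.9%. The level of Acadvl may be too low, because 42.9% of its exon bases in the M21 annotation are shared with Dvl2. Reads there are not assigned, yet the level was divided by the whole transcript. The order also depends on the length used. Per kb of all annotated exons Acadl came first, ahead of Cpt1c and Hadhb, and Cpt1a came last.

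Of the 3 carnitine palmitoyltransferases, 0 passed, and all 3 differed by less than 0.2 on the log2 scale. Cpt1a, the liver-type CPT1 that is inhibited by malonyl-CoA and is the main form in glia, had 408, 347 and 534 normalized counts in WT replicates 2, 3 and 4 and 351 and 412 in Flox replicates 2 and 4. Both Flox values lay inside the WT range (log2 fold change -0.17, SE 0.20, DESeq2 adjusted p = 0.719). Without WT replicate 4 the value was 0.0099. Cpt1c, the brain-specific CPT1 of the endoplasmic reticulum of neurons, with little catalytic activity of its own, had 1353, 1241 and 1208 in WT and 1255 and 1165 in Flox. Its libraries agreed most closely of the 10, with an SD of 5.99% of the mean in WT, and differed by -0.067 on the log2 scale (SE 0.12, DESeq2 adjusted p = 0.837). Cpt2, the inner-membrane enzyme, had 235, 199 and 169 in WT and 229 and 185 in Flox (0.043, SE 0.22, DESeq2 adjusted p = 0.951). Both Flox values of Cpt2 lay inside the WT range. Per kb, Cpt1c exceeded Cpt1a by 5.13, 5.52 and 3.49 times in WT and by 5.53 and 4.38 times in Flox, so the neuronal form was the more abundant in every library. The lowest of these ratios was in WT replicate 4.

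The 4 acyl-CoA dehydrogenases, which differ in the chain length they accept, held the lowest fold change of the 10 genes (Acadvl), and 3 of the 4 had values above 0. Acadvl, the membrane-bound enzyme for very long chains, had 247, 215 and 348 normalized counts in WT and 170.0 and 184 in Flox. Both Flox libraries were below all WT libraries, and the mean was 34.4% lower (270 ± 69.4 against 177 ± 9.81, SD, n = 3 and 2). The log2 fold change was -0.61 (SE 0.24), with an unadjusted p of 0.00974 that did not pass after adjustment (DESeq2 adjusted p = 0.0883, edgeR 0.122). In the alternative fits, where it had one, its adjusted p was 0.0798 to 0.548. The size depended on WT replicate 4, without which it was -0.39 with no adjusted p (unadjusted p = 0.116). In the M21 annotation 42.9% of the exon bases of Acadvl are shared with Dvl2, a Wnt pathway gene on the opposite strand. Reads in such overlaps are not assigned to either gene when strand is not used, so the Acadvl counts cover only part of the transcript. Dvl2 had 184, 160.0 and 147 in WT and 162 and 146 in Flox, and did not differ (-0.085, SE 0.22, DESeq2 adjusted p = 0.902).

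Acadl, the long-chain enzyme, was the most abundant dehydrogenase, at 1111, 975 and 1271 normalized counts in WT and 1091 and 1345 in Flox. Acadm, for medium chains, had 704, 717 and 817 in WT and 724 and 959 in Flox. In both genes Flox replicate 4 was the highest of the 5 libraries and Flox replicate 2 fell inside the WT range. The log2 fold changes were 0.12 (SE 0.15, DESeq2 adjusted p = 0.745) for Acadl and 0.17 (SE 0.16, DESeq2 adjusted p = 0.612) for Acadm, and without Flox replicate 4 they were -0.040 and -0.046. Acads, for short chains, was the least abundant of the 10, with 123, 148 and 166 in WT and 177 and 189.9 in Flox. The groups did not overlap, with Flox higher, at a log2 fold change of 0.33 (SE 0.23, DESeq2 adjusted p = 0.457). Within each library the ratio of Acadvl to Acadl per kb was 0.196, 0.195 and 0.242 in WT and 0.138 and 0.121 in Flox. Both Flox ratios were below all WT ratios. The ratio contains the Acadvl values, which already separated the groups, so it is not a further result. For single genes, 42.4% of all genes tested had groups that did not overlap. An exact permutation test of 3 against 2 libraries cannot go below p = 0.1, so none was run.

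Hadha and Hadhb encode the alpha and beta subunits of the mitochondrial trifunctional protein, which carries out the last 3 steps of each round on long chains. The genes lie head to head on chromosome 5, and their RefSeq starts (GRCm38.p6, positions 30154980 for Hadha on the minus strand and 30155253 for Hadhb on the plus strand) are 273 bases apart. Hadha had 1094, 949 and 1266 normalized counts in WT and 1046 and 972 in Flox. Hadhb had 1394, 1373 and 1596 in WT and 1391 and 1467 in Flox. In both genes the Flox libraries lay within the WT range, and WT replicate 4 was the highest of all 5. The log2 fold changes were -0.13 (SE 0.15, DESeq2 adjusted p = 0.715) for Hadha and -0.025 (SE 0.12, DESeq2 adjusted p = 0.947) for Hadhb. Per kb, the ratio of Hadha to Hadhb was 0.400, 0.352 and 0.405 in WT and 0.383 and 0.338 in Flox, with overlap of the groups. In M21, 75 exon bases of Hadha (0.86%) are shared with Garem2 on the opposite strand.

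Hadh encodes the soluble 3-hydroxyacyl-CoA dehydrogenase, which acts on medium and short chains. It had 366, 413 and 610.1 normalized counts in WT and 516 and 715 in Flox. The groups overlapped, since WT replicate 4 lay between the Flox libraries. The log2 fold change was 0.41 (SE 0.22, DESeq2 adjusted p = 0.287), the highest of the 10. This value turned on single libraries more than that of any other member that kept its direction throughout. It was 0.66 without WT replicate 4, where Hadh passed (DESeq2 adjusted p = 0.0200) as the only 1 of the 8 members with an adjusted p, against 8.86% of 9796 genes in that fit. Without Flox replicate 2 it was 0.63 (DESeq2 adjusted p = 0.112), and without Flox replicate 4 it was 0.15 (DESeq2 adjusted p = 0.998).

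**Figure D3:**
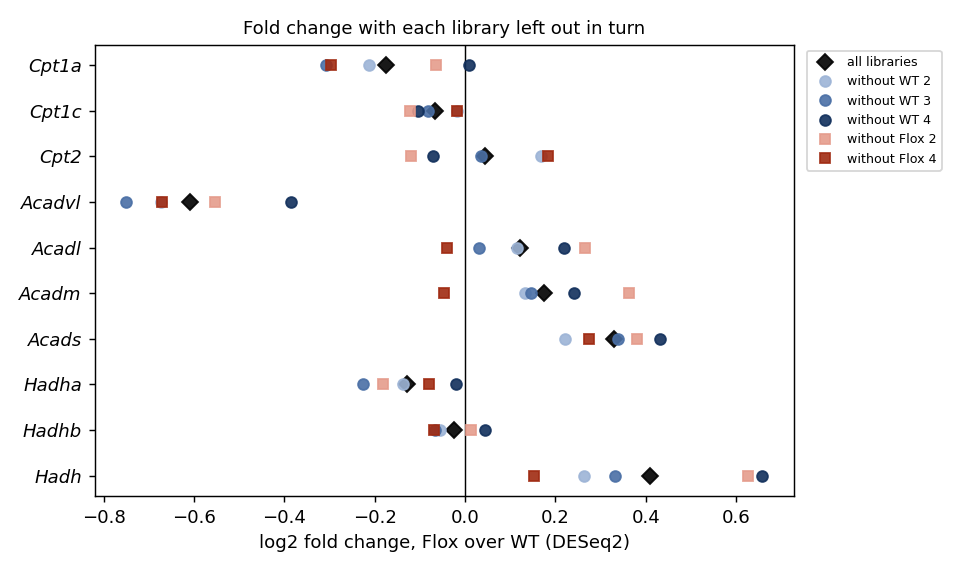
Log2 fold change of each of the 10 genes in Flox over WT (x axis) with all libraries (black diamonds) and with each library left out in turn (circles for WT, squares for Flox). Acadvl stays between -0.75 and -0.39, while Hadh spreads from 0.15 to 0.66 and Acadl, Acadm, Cpt1a, Cpt2 and Hadhb have values on both sides of 0.

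The WT libraries stood in a similar order in many of the 10 genes. WT replicate 4 was the highest of the WT libraries in 8 of 10, against 40.4% of all genes tested, and the lowest in the other 2, Cpt1c and Cpt2. In 5 genes (Cpt1a, Acadvl, Acadl, Hadha and Hadhb) the WT libraries stood in the order replicate 3, replicate 2, replicate 4 from low to high, against 22.3% of all genes. The same order was found in 8 of 9 astrocyte markers and 8 of 8 oligodendrocyte markers, and in 7 of 10 dopaminergic markers. Summed over the 9 astrocyte markers the level was 68653 to 100842 normalized counts in WT and 70664 to 91371 in Flox, and over the 8 oligodendrocyte markers it was 113737 to 168468 and 129836 to 154034, with overlap of the groups in each. DESeq2 called 0 of these 17 glial markers, with 0 at an unadjusted p under 0.05, and all 17 had counts in every library. The part of glial RNA in the levels of the 10 genes was not tested. In these pooled tissue samples, fewer cells of a type and less RNA per cell cannot be told apart.

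**Figure D4:**
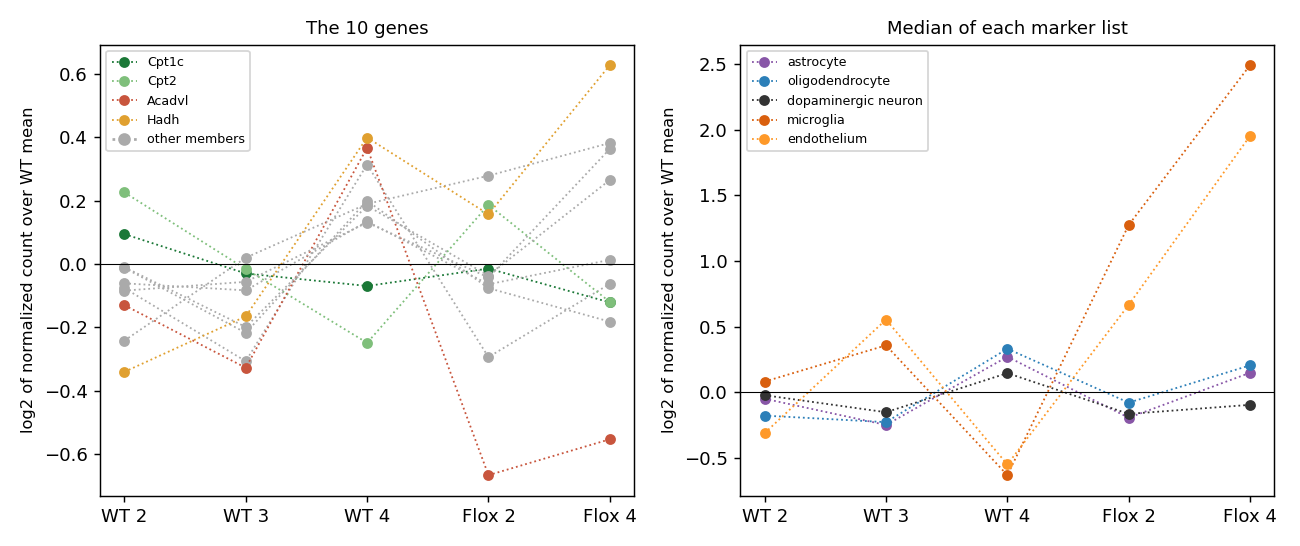
Log2 of the normalized count over the WT mean in each library, for the 10 genes (left) and for the median of each marker list (right); the y axes differ, and dotted lines only join the values of 1 gene or list. Most of the 10 genes are highest among WT libraries in replicate 4, as are the astrocyte, oligodendrocyte and dopaminergic medians. The microglial and endothelial medians are lowest there and highest in Flox replicate 4.

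Most microglial markers and some endothelial markers were higher in Flox. Of 12 microglial markers 10 passed in DESeq2, all higher, against 4.2% of all genes, with a median log2 fold change of 2.03 over the 12. Of 8 endothelial markers 3 passed (Cldn5, Flt1 and Slco1a4), all higher, with a median of 1.52 over the 8, and the other 5 did not pass. The summed endothelial level was 128 to 288 normalized counts in WT and 299.7 to 770.4 in Flox, and 0 markers of either list were at 0. Hadh, Acadm, Acadl and Acads had their highest value in Flox replicate 4, as did the summed levels of these lists. The trait is not particular to microglial or endothelial markers. Gjb6 and Sox9 (astrocyte), Mag and Cldn11 (oligodendrocyte) and Ddc and Slc18a2 (dopaminergic) were also highest there, although most markers of their lists were not. The share of all genes with this trait was not counted. The part of microglial or endothelial RNA in the beta-oxidation genes was not tested. Leaving out Flox replicate 4 gave Hadh, Acadm, Acadl and Acads values of 0.15, -0.046, -0.040 and 0.27 on the log2 scale.

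Few other genes of fatty acid metabolism differed between the groups. Of 64 genes in 10 lists by role, 63 had counts. Of these, 1 passed in DESeq2, the lower Acsl6, and 0 were higher, against 4.05% of all genes lower and 4.2% higher. At an unadjusted p under 0.05 in DESeq2 there were 12 (19.0%), against 20.3% of all genes. The edgeR test called 0, against 1.42% of all genes, with Acsl6 at an adjusted p of 0.0814. At an unadjusted p under 0.05 in edgeR there were 14, and the share over all genes was not counted for that threshold. The median log2 fold change of the 63 was -0.0050. The remaining gene, Cpt1b, the muscle-type CPT1, had 0 counts in all 5 libraries. In M21, 81.4% of its exon bases are shared with another gene, Gm44502, on the same strand, so a count of 0 does not show that it was not expressed.

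**Figure D5:**
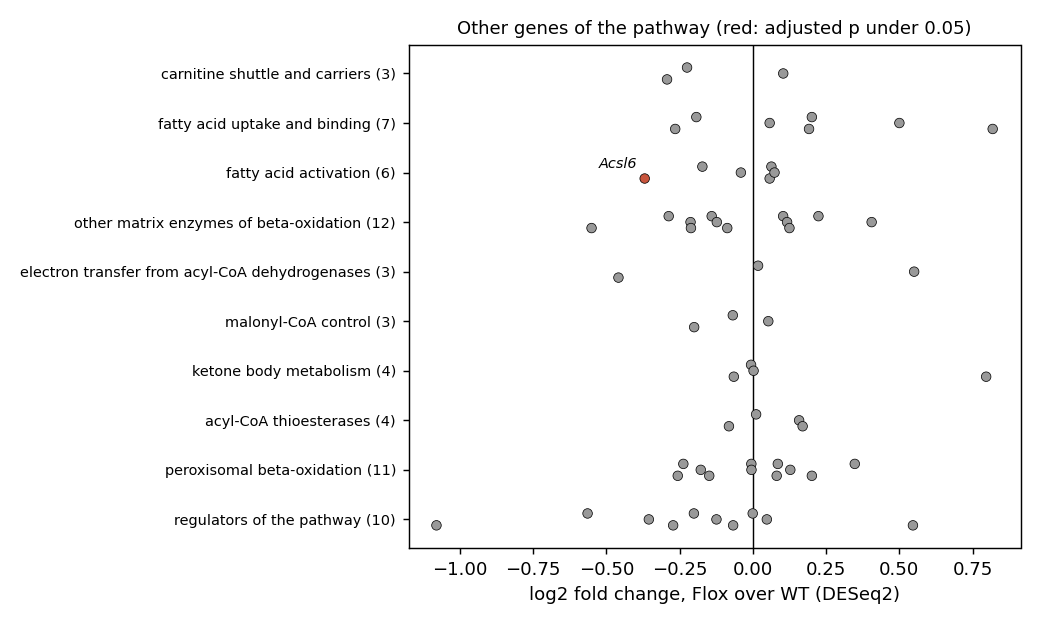
Log2 fold change in Flox over WT (x axis) of 63 other genes of fatty acid metabolism and its control, by list, with the number of genes with a count in parentheses. Acsl6 (red, -0.37) is the only one with an adjusted p under 0.05, and the values run from -1.08 (Ppara) to 0.82 (Cd36), both genes of low counts.

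Acsl6 encodes the acyl-CoA synthetase of neurons and other brain cells that activates long polyunsaturated fatty acids such as docosahexaenoic acid. It had 3062, 2756 and 3362 normalized counts in WT and 2403 and 2336 in Flox. Both Flox libraries were below all WT libraries (log2 fold change -0.37, SE 0.12, DESeq2 adjusted p = 0.0276). The call was lost with edgeR and without WT replicate 2 (adjusted p = 0.216), WT replicate 4 (0.0867), Flox replicate 2 (0.0821) or Flox replicate 4 (0.444), while the direction stayed. Of the 64 genes, 49 matched a RefSeq promoter window. Acsl6 was the only one with the extended ERR motif TNAAGGTCA, which is 2.04% of the 49 against 1.43% of all genes, and the AGGTCA core was in 8 (16.3%), against 18.1%. These shares are near those of all genes. The Acsl6 match is shown with the motif in capitals because 0 of the 10 beta-oxidation genes held it.
Acsl6: ataagaatgcTCAAGGTCAggttggaggc
The stretch lies at chr11:54303647-54303675 on the minus strand, opposite to the gene, and the motif starts 167 bases before the start of transcription. The other genes of fatty acid activation did not pass, among them the abundant Acsbg1 (-0.17) and Acsl3 (0.064).

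In the other lists no gene passed. Among transporters and binding proteins the abundant Dbi, the acyl-CoA binding protein, was at 0.50 (DESeq2 adjusted p = 0.366) and Fabp5 at 0.058. Dbi passed without WT replicate 4 (0.68, DESeq2 adjusted p = 0.00100) and without Flox replicate 2 (0.75, DESeq2 adjusted p = 0.00156), and was at 0.19 without Flox replicate 4. In the carnitine shuttle, Crat, which makes and breaks acetylcarnitine, was at -0.29 and the carrier Slc25a20 at 0.10. Of 12 further matrix enzymes Acad9, which also serves the assembly of complex I, had the lowest value (-0.55, DESeq2 adjusted p = 0.0569), and the abundant Acat1 and Acadsb were at 0.13 and -0.087. The electron transfer genes, whose products pass electrons from the acyl-CoA dehydrogenases towards the respiratory chain, pointed both ways. Etfb was at 0.55 (DESeq2 adjusted p = 0.0912), Etfdh at -0.46 (DESeq2 adjusted p = 0.123) and Etfa at 0.018, and 53.0% of the exon bases of Etfb are shared with another M21 gene, Gm45233, so its counts are uncertain.

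Genes around the pathway gave similar results. Of the genes that set malonyl-CoA, the inhibitor of CPT1, Acaca was at -0.20 and Mlycd at -0.068. Of ketone body genes, Oxct1 was at 0.0027 and Bdh1 at -0.0059, and of the thioesterases Acot7, the most abundant at 18059 to 20709 normalized counts, was at -0.081, Acot13 at 0.16 and Acot1 at 0.17. In peroxisomal beta-oxidation, Acaa1a had the highest value (0.35, DESeq2 adjusted p = 0.0681), with Scp2 at 0.20. Of 10 regulators 0 passed, and 8 had values below 0, against 8011 of all 15724 genes tested. Those below 0 included the receptors Esrra (-0.20), Esrrg (-0.35) and Esrrb (-0.56, DESeq2 adjusted p = 0.0664). The lowest value was that of Ppara (-1.08), and Rxra (-0.00025) was the closest to 0. The coactivator Ppargc1b lay on the other side of 0 (0.55, DESeq2 adjusted p = 0.209). Ppara, a nuclear receptor that activates beta-oxidation genes in liver, had few counts, with 11.2 to 23.1 normalized counts in WT and 0.961 and 14.9 in Flox.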

How the data were processed

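Libraries were poly(A)-selected, not strand-specific, and each came from pooled mice, so p-values measure the spread between pools. The authors trimmed reads (Trim Galore version 0.6.6), aligned them with STAR and counted them with HTSeq, and deposited raw counts per gene. The study's methods name GRCm38 and GENCODE M24, whereas the labels name GRCm39, STAR 2.7.9a and HTSeq 0.11.3. Of 53700 IDs, 52093 (97.0%) were named by their unversioned ID from GENCODE M21, and 99.9% of those carried a newer version than in M21, so no coordinates of the table are given. Reads that overlapped more than 1 gene (5.62% to 5.78%) or lay in none (3.18% to 4.45%) and multiply aligned reads (3.60% to 4.23%) are in no gene's count.

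All 29407 genes that had any count were fitted together with DESeq2 version 1.42.0 (R version 4.3.3), the study's tool, with default size factors, two-sided Wald test, independent filtering at 0.05 and Benjamini-Hochberg adjustment over all genes. Intervals are Wald intervals. Normalized counts are counts divided by size factors, and levels per kb used the longest principal transcript of M21. Alternatives were edgeR version 4.0.16, TMM library sizes, a filter of 10 counts in 2 libraries, a replicate block, and each library left out. The DESeq2 and edgeR fits were also run on simulated counts, with the outcome not reported here. With each Flox library left out, the lone Flox library is assumed to vary like WT. Each pair of libraries differed by more than counting noise (chi-square per degree of freedom 4.25 to 45.8).

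The 10 genes, the 10 lists of related genes and the marker lists were chosen by role with earlier results of these data known. Text names all members and Esrrg, related genes that passed, the 2 most abundant and the most changed gene of each related list, the most abundant marker of a list, and overlapping neighbours; others were named after their values were seen, and some genes that this rule would name are not reported here. The marker lists for GABAergic and glutamatergic neurons had medians of -0.13 (1 of 6 higher, 1 lower) and -0.32 (0 of 3 passed), and that for dopaminergic neurons -0.13 (1 of 10 lower).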

Additional observations from a re-analysis of the deposited data

How the results depend on the processing

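The count of 0 members past the test held in 8 of 9 alternatives, the exception being the fit without WT replicate 4, where Hadh passed, and the range with each library left out was 0 to 1, also with the 1.5-fold threshold. The median log2 fold change of the 10 genes ran from -0.043 to 0.048 when single libraries were left out. Related genes past the test numbered 1 of 63 with all libraries, against 8.25% of all genes, and 0 with edgeR, against 1.42%. With edgeR 14 had an unadjusted p under 0.05. Related genes called with the filter on low counts were 2 of 62 (Acsl6 and Esrrb), against 8.89% of all genes. With the replicate block they were 2 of 57 (Acsl6 and Dbi), against 4.06%. Without WT replicate 2, 3 or 4 they numbered 0 of 63, 1 of 63 and 1 of 51, against 2.16%, 4.04% and 8.86%. Fits that omit a Flox library leave 1 in that group, so their counts of related genes are not given. Those counts differed from the count with all libraries. The direction turned in 7 of 90 values of single members. Acadl (-0.040) and Acadm (-0.046) turned without Flox replicate 4, Cpt1a (0.0099), Cpt2 (-0.071) and Hadhb (0.044) without WT replicate 4, and Cpt2 (-0.12) and Hadhb (0.013) without Flox replicate 2. Their ranges with each library left out were -0.040 to 0.26 (Acadl), -0.046 to 0.36 (Acadm), -0.31 to 0.0099 (Cpt1a), -0.12 to 0.18 (Cpt2) and -0.068 to 0.044 (Hadhb). The cause was not tested. Replicate numbers 2 and 4 occur in both groups but only as numbers. Deviations from the group means correlated at 0.093 (number 2) and 0.087 (number 4) across genes. With 2 Flox libraries the deviations of one mirror those of the other, so these are not separate checks of a pairing. With the replicate block 0 of 10 members passed, the median was -0.017, and genes called over the whole table went from 1297 to 476. Genes with an adjusted p went from 15724 to 11733. Number 3 occurs only in WT, so WT replicate 3 does not enter the Flox difference in that fit. With 3 and 2 libraries, differences under 1.5-fold could be missed in all 10 genes. Larger ones are not excluded for Acadvl, Acads and Hadh, whose intervals with all libraries reach beyond that size. For dopaminergic neurons alone larger ones are not excluded in any of the 10, since the libraries also hold RNA of glia and of other neurons.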
